A study of Zea mays with 6 samples.

Results

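The Affymetrix maize expression array used here held 9 probe sets for 6 genes of catalase and superoxide dismutase, out of 17621 probe sets that were not controls. They were chosen by name alone: a probe set belonged where its only gene symbol, or a synonym of that gene, was cat or sod with a number and an optional letter. The catalase genes were cat1 (LOC542369, 3 probe sets), cat2 (LOC542230, 1 probe set) and cat3 (LOC542370, 1 probe set). The superoxide dismutase genes were sod2 (LOC542260, 2 probe sets), sod3 (LOC542764, 1 probe set) and Sod4A (1 probe set). The tissue was the meristem-enriched base of the shoot, young leaf primordia included, of maize seedlings 14 days old. There were 3 pools of DpDf and 3 of wild type seedlings, each of 8 plants. Both kinds of plant were siblings in the B73 inbred background, from selfed parents that carried a chromosome product of the translocation T5-6b. DpDf (duplicate-deficient) plants have most of the chromosome 5 short arm in 3 copies and a small end piece of the chromosome 6 short arm in 1 copy, and wild type siblings have 2 copies of each. Every DpDf pool therefore differs from its sibling pool in many genes at once, and the plants were sorted by a marker linked to the chromosome 5 break.

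Catalase breaks hydrogen peroxide down to water and oxygen, chiefly in peroxisomes, and superoxide dismutase makes hydrogen peroxide and oxygen out of superoxide. In maize the CAT1 enzyme is best known from scutellum and pollen, CAT2 from the scutellum of germinating seed and from bundle sheath cells of green leaves, and CAT3 from mesophyll and stem, where its transcript follows the time of day. SOD2 and SOD4A are cytosolic copper and zinc enzymes, and SOD3 is the manganese enzyme of mitochondria. RefSeq's gene table (assembly Zm-B73-REFERENCE-NAM-5.0) places cat1 on the short arm of chromosome 5, which makes it the 1 gene of the 5 placed there with an extra copy in DpDf plants. The labels place the break by genetic map and contig, so the copy number of cat1 rests on its place within the arm and was not measured on these arrays. In that table cat2 lies on chromosome 1, cat3 on chromosome 4, sod3 on chromosome 6 away from the missing end, and sod2 on chromosome 7. The identifier of Sod4A had no entry there, and its symbol is listed as a synonym of a gene on chromosome 9.

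Levels are given as log2(intensity + 1), and differences as DpDf minus wild type on that scale. A probe set was tested if its level was at or above the 40th percentile of the array (8.28 to 8.33) on 3 or more of the 6 arrays. This kept 10661 probe sets and 6 of the 9 described here. Wild type replicate 3 stood apart, with a highest Spearman correlation with another array of 0.932, against a lowest of 0.988 among the other 5. It moved the median difference over all probe sets tested to 0.18, against 0.02 without it, so values are given with and without that array. As a sign of RNA quality, the mean log2 ratio of 3' to 5' probe sets over 5 control transcripts was 2.68, 1.46 and 1.39 in DpDf (replicates 1, 2 and 3) and 1.00, 1.10 and 1.12 in wild type (in the same order). DpDf replicate 1, the highest of these, is also left out in turn. Every DpDf pool had a higher ratio than every wild type pool (group means 1.84 and 1.07), and this holds without DpDf replicate 1 too. RNA quality and genotype therefore cannot be told apart in any setting here, for cat1 as for any other gene. Of the meristem markers, KN-1, lg3 and fea2 were measured above the filter and abph1 was not, and 7 of 11 leaf primordium markers passed. No embryo or scutellum marker of 3 (ole1, glb1 and glb2) did, the tissue from which CAT1 is best known.

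cat1 was higher in DpDf than in wild type in its brightest probe set and did not pass the test. The probe set Zm.6357.1.S1_at read 11.85, 12.00 and 11.82 in DpDf, against 11.58, 11.54 and 11.01 in wild type, with replicates 1, 2 and 3 in this order here and after. The groups did not overlap, and wild type replicate 3 was the lowest array. On the linear scale these were intensities of 3692, 4091 and 3625 in DpDf and 3055, 2985 and 2058 in wild type. Of the 9 probe sets in the plot of levels by pool, this one had the largest difference between the group means with all 6 arrays. With wild type replicate 3 left out, the dimmer cat1 probe set differed by more, in the other direction (-0.41 against 0.33). In such pools fewer cells of a type and less RNA per cell cannot be told apart.

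**Figure D1:**
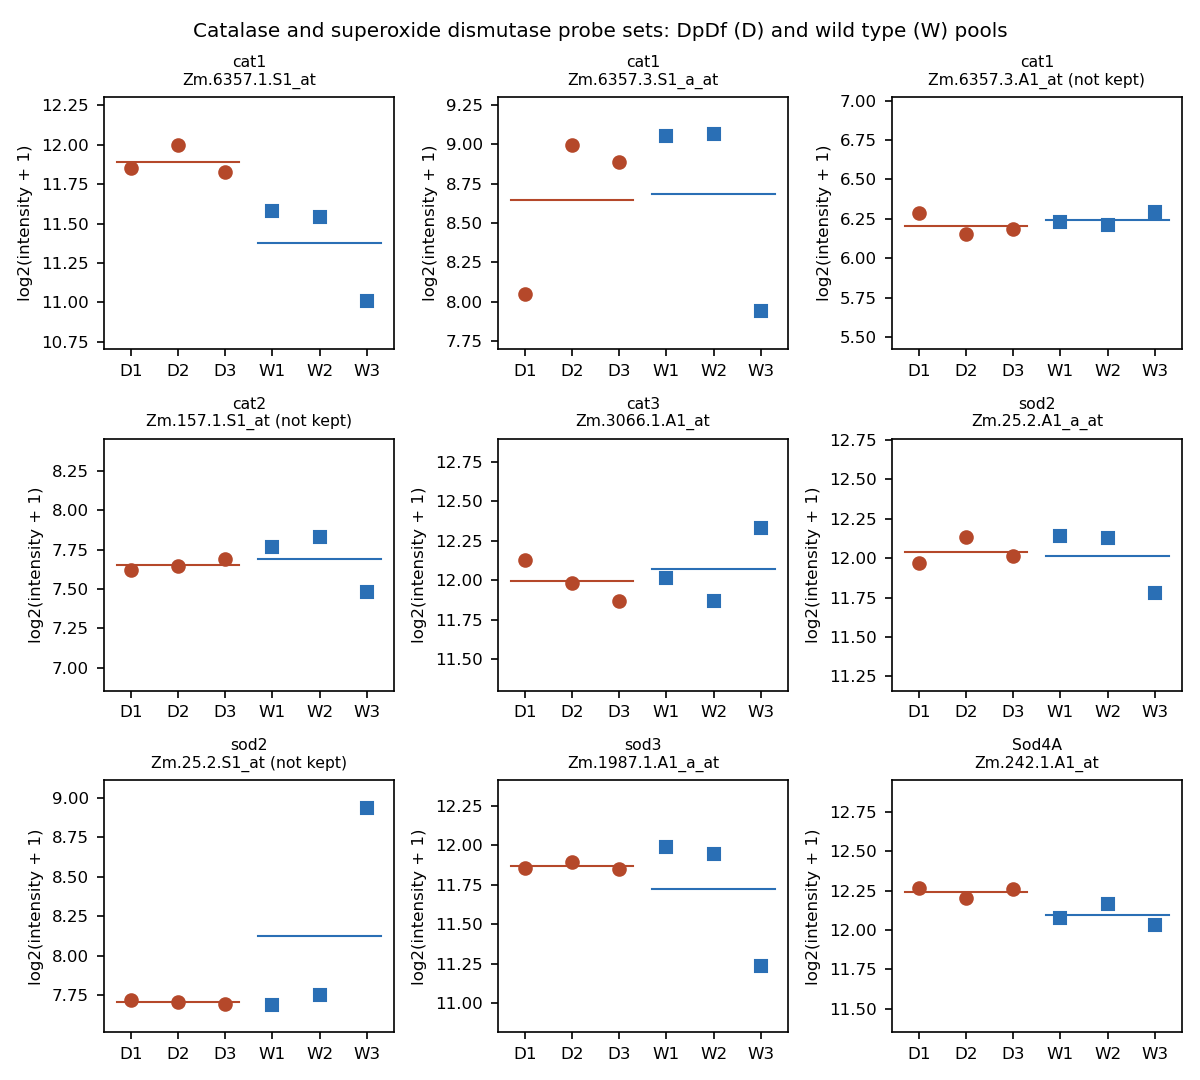
Levels of the 9 probe sets, log2(intensity + 1), in DpDf (D1 to D3, circles) and wild type (W1 to W3, squares) pools, with a line at each group's mean and the same span of 1.6 on every axis; "not kept" marks the 3 probe sets under the filter. The brightest cat1 probe set and Sod4A are higher in all DpDf pools than in all wild type pools, and W3 lies away from the other wild type pools in most panels.

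The difference of cat1 was 0.51 with all 6 arrays (95% interval 0.08 to 0.95, limma adjusted p = 0.442), a 1.43-fold ratio (1.06 to 1.93). It was 0.33 without wild type replicate 3 (0.14 to 0.52, limma adjusted p = 0.0883), a 1.26-fold ratio (1.10 to 1.44). Without that array and DpDf replicate 1 it was 0.35 (0.16 to 0.54, limma adjusted p = 0.0518). The size thus depends on wild type replicate 3, since leaving out any other array gave 0.46 to 0.62. Relative to the median of all probe sets tested, cat1 lay 0.34 higher with all 6 arrays (interval -0.09 to 0.77) and 0.31 higher without wild type replicate 3 (0.12 to 0.50). The log2 of 3 copies over 2 is 0.585: it lies inside the first of these intervals and above the second.

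None of the 6 probe sets tested was called at an adjusted p under 0.05 by limma, with all 6 arrays, without wild type replicate 3 or without both doubted arrays. Over the whole array 0.0281%, 3.33% and 7.06% of 10661 probe sets were called in these settings. At an unadjusted p under 0.05 the brightest cat1 probe set was the 1 of the 6 that passed in each setting, where 9.76%, 20.3% and 23.8% of all probe sets did. Non-overlapping groups were common on these arrays. With all 6 arrays 23.2% of probe sets lay higher in every DpDf pool and 3.61% lower, and 2 of the 6 members, the brightest of cat1 and Sod4A, lay higher. Leaving out wild type replicate 3 gave 25.4% and 17.5%, with the same 2 members higher and the dimmer cat1 probe set and sod3 lower. With DpDf replicate 1 also left out they were 30.1% and 25.5%, so a lack of overlap with so few pools says little of any 1 gene.

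**Figure D2:**
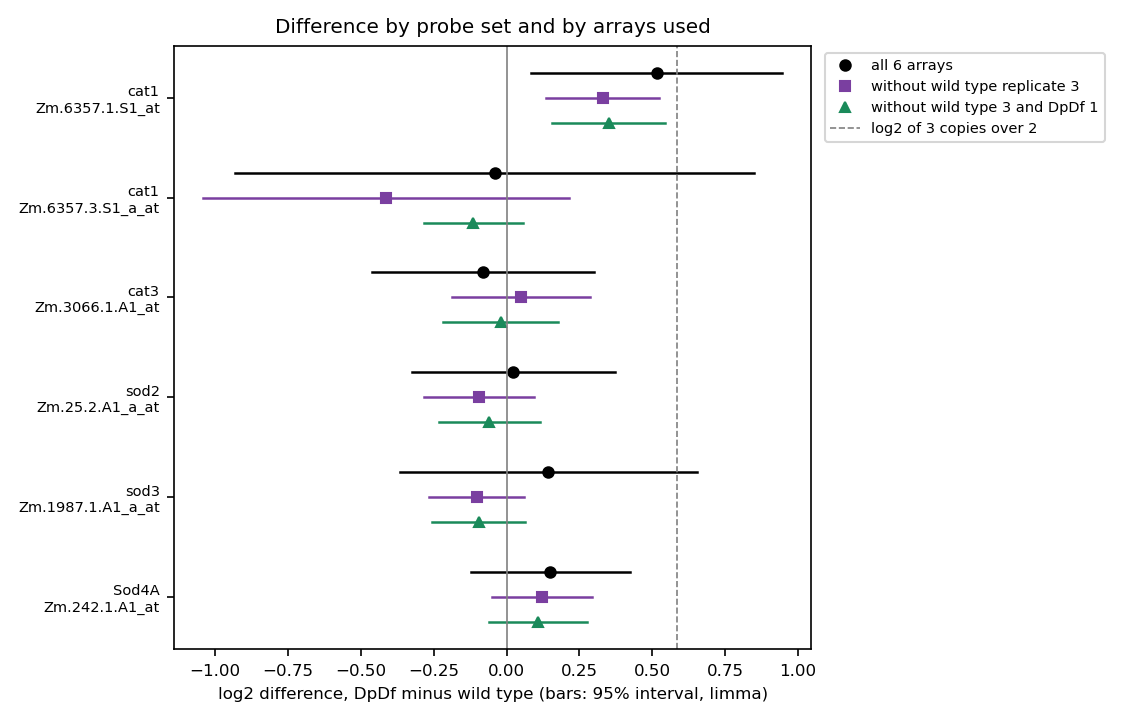
Log2 difference (DpDf minus wild type) of the 6 probe sets tested, with 95% intervals of limma, for all 6 arrays (circles), without wild type replicate 3 (squares) and without wild type replicate 3 and DpDf replicate 1 (triangles). The interval of the brightest cat1 probe set lies above 0 in all 3 settings, and those of the other 5 include 0.

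The extra copy makes cat1 the natural one to set against the other genes, of which cat2, cat3, sod2 and sod3 by their placement have 2 copies in both kinds of plant, and Sod4A has no placement of its own. The log2 gap between cat1 and each other gene, by the brightest probe set of each, was larger in DpDf for all 5 genes, and a change in this gap leaves out whatever scales a whole array alike. The gap of cat1 over cat2 was 4.23, 4.35 and 4.13 in DpDf and 3.81, 3.71 and 3.53 in wild type, a change of 0.55. cat2 was not above the 40th percentile on any array, so p-values given for this gap are not read as a result about cat2. With quantile normalization its change was 0.245 and the groups overlapped (exact permutation p = 0.4). Against cat3 the gap was -0.28, 0.02 and -0.04 in DpDf and -0.44, -0.33 and -1.32 in wild type, a change of 0.60, of which 0.28 was left without wild type replicate 3. The wide wild type spread came from that array, in which cat3 was at its highest and cat1 at its lowest.

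Against the superoxide dismutases the pattern was alike. The change in the gap was 0.49 against sod2, with -0.12, -0.14 and -0.19 in DpDf and -0.56, -0.59 and -0.77 in wild type. It was 0.37 against sod3, with -0.0031, 0.10 and -0.03 in DpDf and -0.42, -0.40 and -0.23 in wild type. It was 0.36 against Sod4A, with -0.42, -0.21 and -0.43 in DpDf and -0.50, -0.62 and -1.03 in wild type. Every DpDf pool lay above every wild type pool in the 4 comparisons with a tested gene and in that with cat2. All share the same cat1 values, so they are not separate observations, and the 0.51 of cat1 is part of each change. Of single probe sets 23.2% lay higher in every DpDf pool, the brightest of cat1 among them, and no such share is given for gaps. Each had a two-sided exact permutation p = 0.1 (adjusted over the 5, cat2 included, also 0.1), the smallest that 3 against 3 arrays can give. With pools of equal replicate number taken as pairs, since they came from 1 planting, the exact sign-flip p was 0.25 for each. That is the smallest that 3 pairs can give. With wild type replicate 3 left out the changes were 0.21 (Sod4A), 0.28 (cat3), 0.43 (sod2), 0.43 (sod3) and 0.47 (cat2), and the groups again did not overlap (exact permutation p = 0.1, and p = 0.2 for cat3). With the mean of a gene's probe sets in place of the brightest, the changes were -0.005 to 0.34 and all groups overlapped (exact permutation p = 0.3 to 1.0). That mean takes in the dimmer tested cat1 probe set, whose difference was -0.04. It also takes in probe sets under the filter, 1 of cat1, 1 of sod2 and that of cat2, so part of the shift is built in. Against sod3 and Sod4A, with 1 tested probe set each, the changes were 0.0024 and -0.005, a shift that comes from the further cat1 probe sets.

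**Figure D3:**
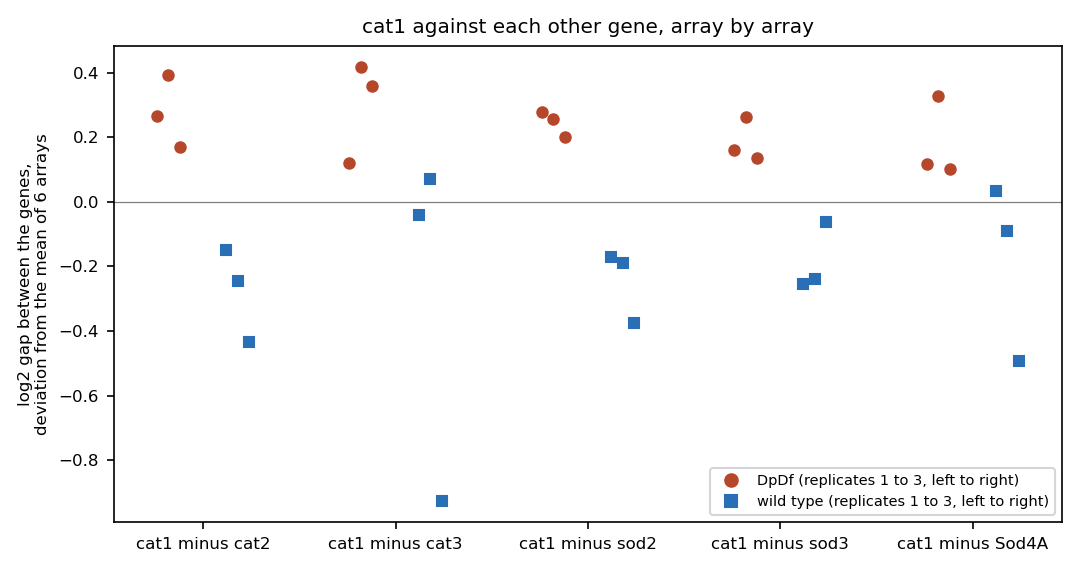
Log2 gap between cat1 and each other gene (brightest probe sets), as the deviation from that gap's mean over the 6 arrays, for DpDf (circles, left) and wild type (squares, right) pools. DpDf pools lie above wild type pools in all 5 comparisons, which share the cat1 values (cat2 is under the filter). The lowest point, cat1 minus cat3, is wild type replicate 3.

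Set among its neighbours on the chromosome, cat1 was close to the middle. The short arm, taken as the first 40% of chromosome 5, held 46 named genes that were tested. Counted from the highest, cat1 ranked 30 whether or not wild type replicate 3 was used. The other 45 arm genes had a median difference of 0.56 (quartiles 0.46 and 0.65) with all 6 arrays and 0.41 (0.27 and 0.52) without wild type replicate 3. Array by array, cat1 minus the median of these 45 genes was 0.86, 0.87 and 0.66 in DpDf and 0.88, 0.82 and 0.96 in wild type. The groups overlapped, and the change was -0.09 (two-sided exact permutation p = 0.4). Over the median of 744 genes placed elsewhere, cat1 stood at 1.21, 1.32 and 1.22 in DpDf and 0.93, 0.92 and 0.78 in wild type. That change was 0.37, with no overlap (two-sided exact permutation p = 0.1, and 0.2 adjusted over these 2 comparisons), and it was 0.32 without wild type replicate 3. With the pools paired by replicate number, its exact sign-flip p was 0.25.

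The 3 tested genes on either side of cat1 in the order along the arm differed among themselves. On the one side sbe1, a starch branching enzyme, differed by 0.52, cdpk1, a calcium-dependent protein kinase, by 0.71 and arpp3 by 0.20. On the other side psiP differed by 0.70, PLC by 0.52 and pdi4, a protein disulfide isomerase, by 0.96. None of these 6 passed with all 6 arrays (limma adjusted p = 0.302 to 0.563). When wild type replicate 3 was left out, cdpk1 (0.62), psiP (0.58), PLC (0.55) and pdi4 (0.52) rose (limma adjusted p = 0.0180 to 0.0240). In that setting sbe1 (0.54) and arpp3 (0.12) did not pass, with limma adjusted p = 0.104 and 0.384. With that array left out 18 of the 46 arm genes passed by the probe set that stood for them, and cat1 was not among them.

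**Figure D4:**
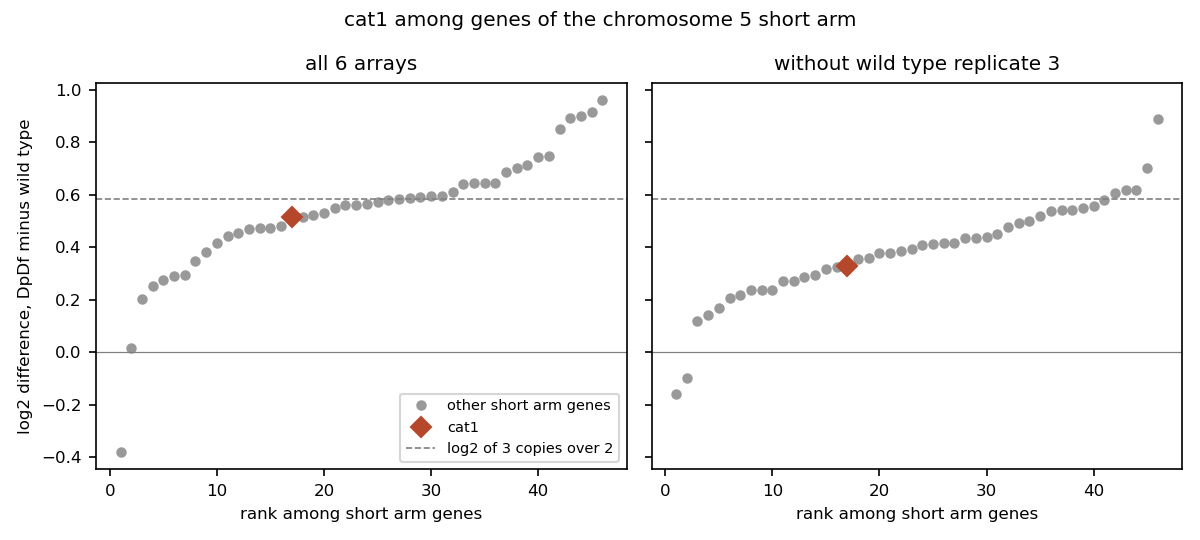
Log2 difference (DpDf minus wild type) of the 46 short arm genes in rank order, with all 6 arrays (left) and without wild type replicate 3 (right); the diamond is cat1, the dashed line the log2 of 3 copies over 2 (0.585). cat1 lies at 0.51 and 0.33, below the medians of the other arm genes, 0.56 and 0.41.

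The 3 probe sets of cat1 did not read alike. The dimmer Zm.6357.3.S1_a_at read 8.05, 9.00 and 8.89 in DpDf and 9.05, 9.06 and 7.94 in wild type. It was low in 1 pool of each genotype, DpDf replicate 1 and wild type replicate 3, both under the 40th percentile, and nearly level in the other 4. Its difference was -0.04 with all 6 arrays (95% interval -0.93 to 0.85, limma adjusted p = 0.959) and -0.41 without wild type replicate 3 (-1.04 to 0.21, limma adjusted p = 0.408). Without both low pools it was -0.11 (-0.28 to 0.06, limma adjusted p = 0.378). The brightest probe set without the same 2 arrays differed by 0.35 (0.16 to 0.54). The gap of this probe set below the brightest was -3.80, -3.001 and -2.94 in DpDf and -2.53, -2.48 and -3.07 in wild type. The change of -0.56 was not distinguishable from the spread between pools (two-sided exact permutation p = 0.3, and 0.45 adjusted over 3 pairs of probe sets). Without wild type replicate 3 the change was -0.74 with no overlap (exact permutation p = 0.2).

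Low readings in both of these pools were not rare, but ones this low were. In 1714 of 10661 probe sets tested (16.1%) both pools lay below the other 4, and in 10 (0.0938%) by at least the gap seen here, 0.84. This count was made after the cat1 values were seen. DpDf replicate 1 had the highest ratio of 3' to 5' signal, 2.68, whereas wild type replicate 3, with the lower cat1 reading, had 1.12, close to the 1.10 of wild type replicate 2. Which part of the cat1 transcript each probe set covers is not known here, and the part that RNA quality has in these readings was not tested. The remaining probe set, Zm.6357.3.A1_at, read 6.15 to 6.29 in DpDf and 6.21 to 6.30 in wild type, under the 40th percentile on all 6 arrays, so it gives no fold change. In the maker's naming A1 and S1 mark opposite orientations of 1 source sequence. By name, this probe set and the S1 one of the same cluster would thus read opposite strands, which was not checked against probe sequences.

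**Figure D5:**
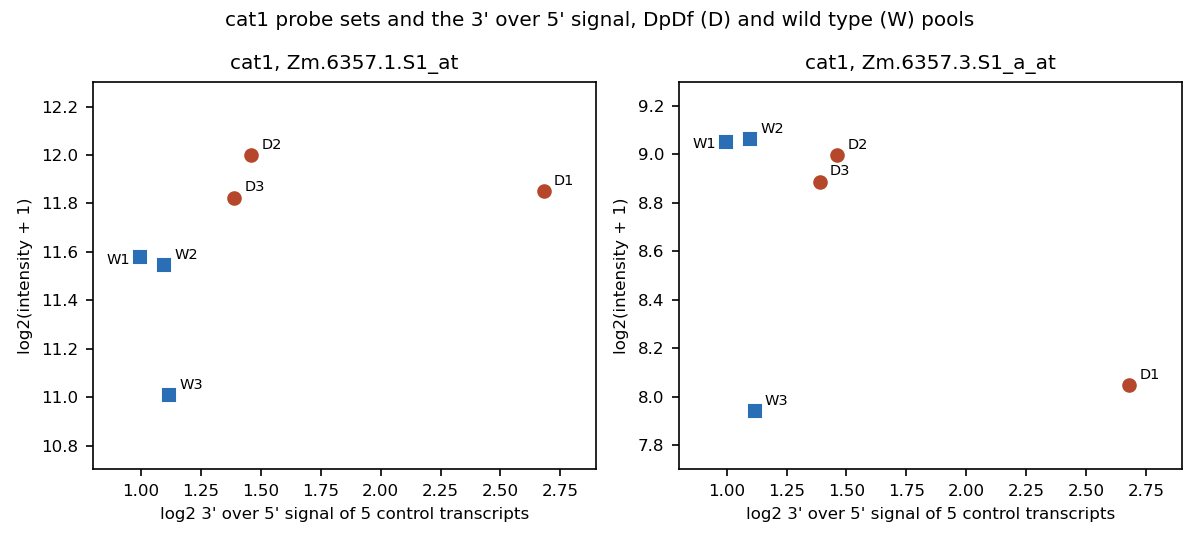
Level of the brightest (left) and the dimmer tested (right) cat1 probe set, log2(intensity + 1), against the mean log2 ratio of 3' to 5' probe sets over 5 controls, for DpDf (D, circles) and wild type (W, squares) pools. In the dimmer probe set D1 (8.05 at a signal of 2.68) and W3 (7.94 at 1.12) lie below the other 4 pools; in the brightest, D1 lies among the DpDf pools.

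cat2 was too dim to be compared between genotypes, and the cat3 groups overlapped. The cat2 probe set, Zm.157.1.S1_at, read 7.62, 7.65 and 7.69 in DpDf and 7.77, 7.83 and 7.48 in wild type, under the 40th percentile on all 6 arrays, and was tested only with no filter (limma adjusted p = 0.873, with 0.0114% of all probe sets called). Its groups overlapped through wild type replicate 3 alone. The difference was -0.04 with all 6 arrays and -0.14 without that one, with every DpDf pool then lower, and at this level neither value shows a change or the lack of one. Bundle sheath markers, the cells in which the CAT2 enzyme is known from green leaves, were measured nonetheless: rbcS and ME1 both passed the filter, with summed intensities of 15602 to 16410 in DpDf and 14316 to 15853 in wild type.

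The cat3 probe set, Zm.3066.1.A1_at, was well above that bound, at 12.13, 11.98 and 11.87 in DpDf and 12.02, 11.87 and 12.33 in wild type. The groups overlapped, with the highest and the next to lowest value both in wild type. Its difference was -0.08 with all 6 arrays (95% interval -0.46 to 0.30, limma adjusted p = 0.793). It was 0.05 without wild type replicate 3 (-0.19 to 0.29, limma adjusted p = 0.801), which leaves out the 0.585 of an added copy. All pools were collected in the same morning hour, so its daily rhythm was sampled at 1 time only.

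Of the superoxide dismutases, Sod4A was slightly higher in DpDf and the other 2 overlapped. Sod4A (Zm.242.1.A1_at) read 12.27, 12.20 and 12.26 in DpDf and 12.08, 12.17 and 12.03 in wild type. Every DpDf pool lay above every wild type pool, by a difference of 0.15 (95% interval -0.12 to 0.42, limma adjusted p = 0.576) that is close to the median of all probe sets tested, 0.18. The difference was 0.12 without wild type replicate 3 (-0.05 to 0.29, limma adjusted p = 0.378). The direction turned to -0.04 when each array was centred on its median.

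For sod3, the mitochondrial manganese enzyme, Zm.1987.1.A1_a_at read 11.85, 11.90 and 11.85 in DpDf and 11.99, 11.95 and 11.23 in wild type. The DpDf pools were within 0.05 of each other and lay below wild type replicates 1 and 2 but above replicate 3. The difference of 0.14 with all 6 arrays (95% interval -0.37 to 0.65, limma adjusted p = 0.735) turned to -0.10 without wild type replicate 3 (-0.27 to 0.06, limma adjusted p = 0.427). For sod2 the brightest probe set, Zm.25.2.A1_a_at, read 11.97, 12.14 and 12.02 in DpDf and 12.14, 12.13 and 11.78 in wild type. Its difference was 0.02 with all 6 arrays (-0.32 to 0.37, limma adjusted p = 0.936) and -0.10 without wild type replicate 3 (-0.28 to 0.09, limma adjusted p = 0.516).

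The other sod2 probe set, Zm.25.2.S1_at, of the opposite orientation by its name, read 7.69 to 7.72 in DpDf and 7.69, 7.75 and 8.93 in wild type. Wild type replicate 3 alone was above the 40th percentile there, by more than 0.6, while the brighter sod2 probe set was at its lowest in the same array. The gap between them therefore changed by -0.44 with all 6 arrays (two-sided exact permutation p = 0.9) and by 0.08 without that array (exact permutation p = 0.4). With that array left out, the genotypes overlapped in both sod2 probe sets.

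Summed markers of some other cells were higher in DpDf, as cat1 was, though no marker was called. The 4 vascular and secondary wall markers measured (cesa10, cesa11, CesA12 and bk2) had summed intensities of 9065 to 9587 in DpDf and 7512 to 8084 in wild type, with no overlap. Of these bk2 overlapped by itself, and cesa10, cesa11 and CesA12 were higher in every DpDf pool. The 3 mesophyll markers (pep1, mdh6 and C4ppdkZm1) had sums of 11429 to 13127 in DpDf and 7464 to 11425 in wild type, which just failed to overlap. Its members differed: C4ppdkZm1 and mdh6 were higher in every DpDf pool, and pep1 read 11.18, 11.11 and 10.83 in DpDf and 11.48, 11.16 and 10.27 in wild type, with overlap. The sums of meristem markers (1834 to 2668 in DpDf, 1817 to 2291 in wild type) and of leaf primordium markers (9637 to 10229 in DpDf, 7179 to 10204 in wild type) overlapped. The 3 embryo markers had overlapping sums of 286 to 314 in DpDf and 303 to 559 in wild type. With all 6 arrays 23.2% of probe sets tested lay higher in every DpDf pool. The median difference was 0.22 for vascular and 0.37 for mesophyll markers, against 0.18 over all probe sets tested. Without wild type replicate 3 these medians were 0.22, 0.19 and 0.02. The part of the cell markers in the cat1 difference was not tested.

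The wider antioxidant system, by lists of symbols that included 55 genes, of which 36 passed the filter, gave 0 calls with all 6 arrays by limma. Without wild type replicate 3 there was 1 call among the 36, no more than the share over all probe sets (3.33%). It was gst42 (a glutathione transferase), which rose by 0.74 ± 0.13 (SE, limma adjusted p = 0.0367). The gene read 9.06, 9.32 and 9.25 in DpDf and 8.67, 8.28 and 9.02 in wild type, so the groups did not overlap and wild type replicate 3 came nearest. The 22 glutathione transferase genes that passed, a family that couples glutathione to reactive compounds, had a median difference of -0.04 in either setting, against 0.18 and 0.02 over all probe sets tested. The genes of smallest p besides gst42 were gst2 (0.55, and 0.65 without that array), gst5 (0.28 and 0.19) and GST3 (-0.31 and -0.41).

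Enzymes that use or make the substrate of catalase were not called either. In the ascorbate-glutathione cycle, which also removes hydrogen peroxide, 4 of 4 genes passed the filter, and their differences had a median of 0.05 (-0.11 when wild type replicate 3 was left out). They were the ascorbate peroxidase gene apx (-0.01 and -0.07), the glutathione reductase gene gor1 (0.32 and -0.14), and gsh1 (0.05 and -0.08) and gs (0.05 and -0.19), which make glutathione. Among 4 peroxidase and thioredoxin genes, the secreted peroxidase PER42 had the largest difference, 0.72 and 0.64 (limma adjusted p = 0.302 and adjusted p = 0.0654). It read 11.10, 11.04 and 10.64 in DpDf and 10.33, 10.25 and 10.04 in wild type, with no overlap. The peroxidase PER1 differed by -0.29 and -0.35, and the thioredoxin genes trm1 and trh2 by 0.33 and 0.07 (0.17 and 0.04 without that array).

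The iron store ferritin genes fer2 and fer1 differed by 0.36 and 0.17 (0.32 and 0.23 without wild type replicate 3), and aox1 (LOC542073), for the alternative oxidase of mitochondria, by 0.17 (0.04). The NADPH oxidase gene rbohB, which makes superoxide outside the cell, differed by 0.42 (0.29). Of glyoxylate cycle genes 1, the malate synthase gene mas1, was on the array, at 0.14 (0.12). Of 5 abscisic acid response genes 1 passed the filter, dhn2, a dehydrin, at 0.10 (0.02) in its brightest probe set. None of these was called in either setting.

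The genes most like each catalase were sought among 972 other named probe sets, by Pearson correlation over the 6 arrays after each was centred on its median. For cat1 these were ohp2 (r = 0.98), LOC541772 (0.97) and LOC542721 (0.97), and all 3 lie on the short arm of chromosome 5, as do 58 of the 972. For cat2, which was under the 40th percentile on all 6 arrays, they were SRP2B (0.98), his2b5 (0.97) and ypt2 (0.97). For cat3 they were LOC542766 (0.99), Qscn6l1 (0.99) and sbp6 (0.99). Of these last 6 none was placed on that arm, though SRP2B had no placement at all. Points are pools that share a genotype, and before centring wild type replicate 3 lay lowest for cat1 and cat2 and highest for cat3. The median taken off was 9.63 in that array and 10.07 to 10.14 in the others, so centring raised it relative to them. These correlations therefore describe these 6 arrays only, and that of cat2 is not read as a result about cat2.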

How the data were processed

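The authors deposited intensity values on a linear scale, 1 per probe set and array. GCOS 1.2 and GCRMA were used, per the submitters' processing notes, but what each did, and how arrays were scaled, is not given there. Values were turned into log2(intensity + 1). Leaving aside 113 controls, a probe set was kept if on 3 or more of the 6 arrays it was at or above that array's 40th percentile. limma 3.58.1 in R 4.3.3 (lmFit, eBayes, 2 groups, no block) was fitted to all probe sets kept, with p-values adjusted over them (Benjamini-Hochberg) and calls made under 0.05. It was also run on simulated data, with added changes larger than that of 3 copies over 2. That run was not a test of whether a change of the size seen in cat1 would be called. Gaps between probe sets were compared by two-sided exact permutation over arrays, and under the replicate block by exact sign flips of the paired differences. Precision is limited by the number of arrays.

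Names came from the platform table, updated by gene identifier with RefSeq. RefSeq coordinates gave the chromosome, the gene order and the bound of the short arm, taken as the first 40% of chromosome 5. The members and lists were chosen with earlier results of these data known. From the marker lists 3 symbols that matched another gene (PDK1, GLB1 and pep) were left out after the data were seen. All members were named, and of other lists up to 4 genes by smallest p with 6 arrays, plus any called. For cat1, cat2 and cat3 the 3 most correlated genes were named. Per the labels, equal replicate numbers came from 1 planting, so they pair the pools. The correlation of the pools' deviations was 0.08, -0.16 and 0.20 over the 3 pairs. Between pools of unlike number it was -0.22 to 0.19, so these values do not show paired pools to be more alike. Alternatives were single arrays left out, 2 left out together, the replicate block, a pseudocount of 16, median centring, quantile normalization, no filter, and the mean of a gene's probe sets.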

Additional observations from a re-analysis of the deposited data

How the results depend on the processing

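Across 18 results and 211 values under alternatives, 191 kept their direction and their side of the threshold. Some of these could not differ. The replicate block and the lack of a filter leave a difference as it is, and centring leaves a gap within an array as it is. The gaps could not cross a threshold of 0.05 in any setting. Their smallest possible p was 0.1 or 0.333 by exact permutation and 0.25 by sign flips, so only their direction could change. The brightest cat1 probe set kept its direction in every setting run, at 0.33 to 0.62 with single arrays left out and at 0.33 with each array centred on its median. The replicate block cannot move its difference of 0.51 and gave limma adjusted p = 0.405, and the block changed no call among the members. The small differences turned. Sod4A was at -0.039 with centring. The dimmer cat1 probe set ranged over -0.41 to 0.26 with single arrays left out and stood at 0.0072 with quantile normalization, and cat3 ranged over -0.18 to 0.0485. For sod2 the range was -0.10 to 0.086, with -0.06 without wild type replicate 3 and DpDf replicate 1, -0.17 with centring and -0.13 with quantile normalization. For sod3 these values were -0.10 to 0.28, -0.10, -0.046 and -0.024. The gap within sod2 ranged over -0.72 to 0.081, and was 0.04 without both arrays. That of cat1 over Sod4A was -0.005 by the mean of probe sets. Calls among other antioxidant genes numbered 0 to 1 with single arrays left out and 1 without both. The causes were not tested.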
